A study of Mus musculus with 4 samples.

Results

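The sterol and fatty acid synthesis genes examined here are 40 mouse genes chosen by gene symbol, of the 45777 genes in the deposited files. They were chosen with earlier results of these data known, so their shares against all genes are descriptions and not tests. They fall into 5 role groups: 7 genes of the mevalonate steps, 11 of the steps between squalene and cholesterol, 5 that control the SREBP transcription factors, 8 of sterol transport, storage and LXR signalling, and 9 of fatty acid synthesis and desaturation. All 40 symbols matched 1 gene each, and all 40 passed the filter on low counts. Counts of single members ranged from 32 to 126604 per library.

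RNA was sequenced from mouse gastric organoids, which are cultures of stomach epithelium that grow in a matrix. The Smad4 Knockout group holds 2 libraries from organoids in which Cdh1, Trp53 and Smad4 are knocked out, and the Control group holds 2 libraries from organoids in which Cdh1 and Trp53 are knocked out. Both groups therefore lack Cdh1, which encodes E-cadherin, and Trp53, which encodes p53, so the controls are not wild type. Smad4 encodes the SMAD protein that is shared by the TGF-beta and BMP signalling branches. The 4 libraries carry 4 different line names (CPS1 and CPS4 for Smad4 Knockout, CPE and CPG for Control), and the labels leave unsaid how the lines relate to each other or to single animals. The p-values below thus measure the spread between these libraries, which may be technical or lie between lines. Each genotype has lines of its own, so differences between lines and between genotypes cannot be fully told apart. The organoids were maintained with serum and L-WRN conditioned medium, and were then kept for 2 days in medium with B27 and N2 but without serum or conditioned medium before RNA was taken. The labels used here give no age, sex or strain of the animals.

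Sterols and fatty acids are both built from acetyl-CoA. The mevalonate steps make the isoprenoid units that are joined into squalene, squalene is closed into lanosterol, and a series of demethylations, reductions and shifts of double bonds turns lanosterol into cholesterol. Most genes of these steps are activated together by SREBP2, encoded by Srebf2, whereas SREBP1, encoded by Srebf1, acts more on the genes of fatty acid synthesis. When sterols are plentiful, INSIG proteins hold SCAP and its SREBP cargo in the endoplasmic reticulum, and oxysterols activate the LXR receptors, which switch on genes of sterol export. In epithelial organoids, as in other growing cells, the pathway supplies membrane.

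Depth was 85649781 and 96402585 counts in the Smad4 Knockout libraries, against 99845702 and 92334224 counts in the Control libraries. Smad4 itself was at 54.4 and 52.9 CPM in the Smad4 Knockout libraries, against 94.5 and 103 CPM in the Control libraries (edgeR adjusted p = 0.677, DESeq2 adjusted p = 5.0e-08). CPM is the count scaled to a fixed library size, after TMM scaling of the libraries. Smad4 transcript thus remained in the libraries labelled as knockouts. The 8 epithelial markers summed to between 10668 and 11987 CPM in the 4 libraries, and all 8 were at 1 CPM or more. Of the 7 parietal and chief cell markers in the files, Atp4b, Cblif, Pgc and Lipf were at 0 counts in all libraries. Atp4a of the same list was detected, at 3.60 and 3.54 CPM in the Smad4 Knockout libraries, against 3.91 and 4.02 CPM in the Control libraries. The list summed to between 3.77 and 4.25 CPM. Of the 6 enteroendocrine markers, 5 were at 0 in all libraries. The marker lists for fibroblasts, immune cells, endothelium and for fat and liver cells each summed to at most 5.71 CPM. In bulk RNA, fewer cells of a type and less RNA per cell cannot be told apart.

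The upstream sequences of the members are shown first, because the sterol enzymes are classically read out as one SREBP-driven set. RefSeq windows on GRCm38.p6, from 250 bases before to 50 bases after each listed gene start, were at hand for 31 of the 40 members, in 40 windows. A core of the sterol regulatory element, the site bound by SREBP, was searched as TCACNCCAC on both strands. It was found in 1 of the 40 member windows, that of Hmgcs1, and in 1.24% of all 32851 promoter windows. The CCAAT box, the site of NF-Y, which works beside SREBP at many such promoters, was searched as CCAAT on both strands. It was present in 14 of 18 windows of the sterol synthesis enzymes (77.8%), in 9 of 22 windows of the other members (40.9%) and in 37.4% of all windows. These windows covered 15 of the 18 sterol synthesis enzymes. The GC box GGGCGG was in 15 of the 18 windows (83.3%), in 59.1% of the windows of the other members and in 35.7% of all windows. The E-box CACGTG was in 3 of the 18 (16.7%), in 18.2% of the windows of the other members and in 7.15% of all windows. Absence of a match says only that these letters are not in the window. Printed here are the window with the sterol element core and those of Idi1, Mvd and Dhcr7, the sterol enzymes with the smallest p-values described below. Capitals mark the sterol element core and the CCAAT boxes (as CCAAT or, on the other strand, ATTGG). The capitals do not overlap each other. Of the 3 Dhcr7 windows, the one shown holds 2 CCAAT boxes and lies downstream of the first listed start, and the other Dhcr7 windows hold none.
Hmgcs1, chr13:119690101-119690400, plus strand: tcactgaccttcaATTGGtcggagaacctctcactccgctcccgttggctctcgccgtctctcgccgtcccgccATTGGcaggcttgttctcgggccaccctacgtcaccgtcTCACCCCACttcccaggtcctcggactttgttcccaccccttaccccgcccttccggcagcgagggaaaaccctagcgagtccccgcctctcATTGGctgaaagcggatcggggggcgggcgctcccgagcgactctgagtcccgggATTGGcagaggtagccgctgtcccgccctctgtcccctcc
Idi1, chr13:8885356-8885655, plus strand: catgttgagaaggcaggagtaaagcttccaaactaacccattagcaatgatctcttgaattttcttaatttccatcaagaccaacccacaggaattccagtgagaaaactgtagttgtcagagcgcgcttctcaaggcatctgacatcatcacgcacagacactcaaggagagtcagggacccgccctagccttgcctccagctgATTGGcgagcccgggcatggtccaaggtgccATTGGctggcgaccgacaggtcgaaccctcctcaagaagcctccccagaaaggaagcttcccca
Mvd, chr8:122443373-122443672, minus strand: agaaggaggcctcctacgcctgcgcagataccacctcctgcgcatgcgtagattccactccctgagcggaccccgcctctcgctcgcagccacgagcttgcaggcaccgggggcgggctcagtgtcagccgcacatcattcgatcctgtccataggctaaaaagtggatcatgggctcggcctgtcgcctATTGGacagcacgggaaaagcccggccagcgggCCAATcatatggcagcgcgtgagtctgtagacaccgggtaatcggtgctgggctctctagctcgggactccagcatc
Dhcr7, chr7:143829964-143830263, plus strand: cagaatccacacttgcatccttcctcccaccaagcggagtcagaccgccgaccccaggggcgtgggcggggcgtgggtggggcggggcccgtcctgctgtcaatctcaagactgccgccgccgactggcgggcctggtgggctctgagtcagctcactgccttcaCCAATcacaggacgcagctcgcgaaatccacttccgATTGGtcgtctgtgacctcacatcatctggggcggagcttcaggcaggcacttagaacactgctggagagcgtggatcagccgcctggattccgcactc

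Levels per transcript length, as deposited TPM, differed widely among the members. Averaged over the 4 libraries, 11 of the 40 members lay above 100 TPM. The share of all genes above this level was not counted. Fdps, which makes farnesyl diphosphate, was the highest at 429 TPM on average, with a range of 390.2 to 448 TPM, and Scd2, a stearoyl-CoA desaturase, followed at 374 TPM, with a range of 368 to 381 TPM, so these neighbours did not overlap. Exons of Fdps overlap those of another gene, Gm43738, on the same strand over 26.7% of their length, so its level is uncertain even where strand was used. Msmo1, Cyp51 and Hmgcs1 came next at 238, 219 and 204 TPM, and their ranges overlapped from each to the next. Acly, which supplies cytosolic acetyl-CoA, averaged 199 TPM and Fasn, the fatty acid synthase, 153 TPM. At the other end stood the LXR-linked genes Abcg1 (2.07 TPM), Mylip (1.58 TPM), Nr1h3 (1.04 TPM) and Abca1 (0.153 TPM). Among the members, several synthetic enzymes thus had the highest levels, and transcripts of the cholesterol exporters ABCA1 and ABCG1 were among the lowest. Other synthetic enzymes lay much lower than Fdps, as did Hsd17b7 (17.3 TPM), Dhcr7 (16.4 TPM) and Tm7sf2 (16.2 TPM).

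The comparison asked whether loss of Smad4 on this background goes with a different level of these genes. Across all 18115 genes tested with edgeR, 0 were called at an adjusted p of 0.05 (0.0% in either direction), so 0 of the 40 members were called. DESeq2 called 1 member, Dhcr7, as higher, against 0.513% of genes called higher and 0.173% called lower over the whole table, and limma on TPM called 0 members. At an unadjusted p under 0.05 edgeR listed 4 members as higher (Dhcr7, Scd1, Stard4 and Idi1) and 0 as lower, where 3.33% of all genes were listed as higher and 3.04% as lower. Of the 40 members, 27 had a log2 fold change above 0, against 49.5% of all genes. In 12 members both Smad4 Knockout libraries lay above both Control libraries, against 18.2% of all genes, and in 1 member, Acly, both lay below, against 18.6%. On the deposited TPM these numbers were 21 and 2 members, against 23.2% and 14.1% of all genes.

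Most differences were small. The log2 fold change of 31 members was within 1.2-fold of no change, the median over the 40 was 0.06 (-0.00257 over all genes tested), and the median of the absolute log2 fold change was 0.11, against 0.11 for the 10804 genes averaging 5 CPM or more. The 95% intervals had a median width of 0.606 on the log2 scale. In 4 members, again Dhcr7, Scd1, Stard4 and Idi1, the interval lay above 0.

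**Figure D1:**
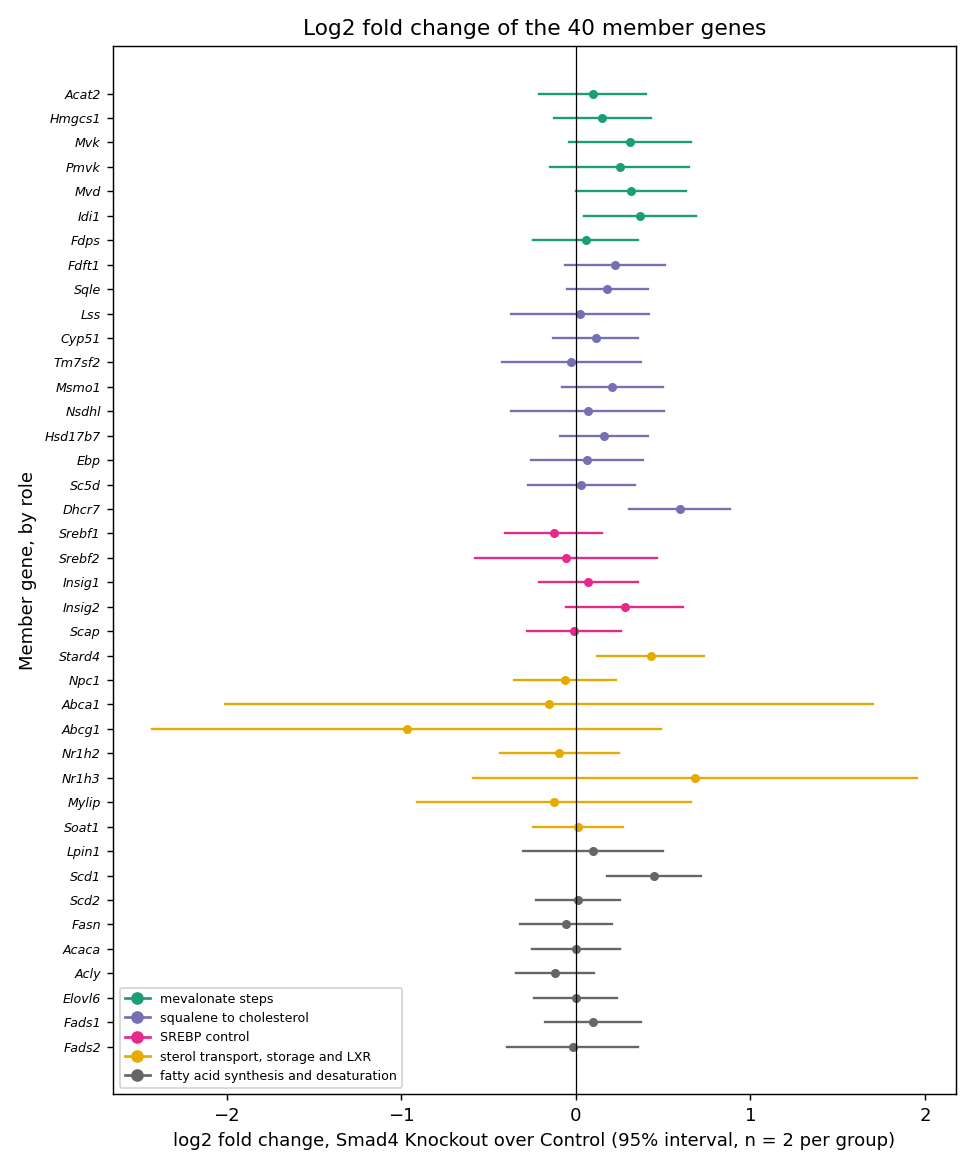
Log2 fold change of each of the 40 members, Smad4 Knockout over Control, with its 95% interval from edgeR (n = 2 libraries per group), coloured by role group. The point of Dhcr7 lies at 0.60 with an interval of 0.31 to 0.89, while the intervals of Abca1, Abcg1 and Nr1h3 are the widest.

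The enzymes of the mevalonate steps all had log2 fold changes above 0, from 0.06 in Fdps to 0.37 in Idi1. Their median was 0.25, and 0.099 without Smad4 Knockout 2. Idi1, which isomerises isopentenyl diphosphate, was at 192 and 233 CPM in the Smad4 Knockout libraries, against 174 and 156 CPM in the Control libraries. Its group means were 213 ± 28.4 CPM and 165 ± 13.0 CPM (SD, n = 2 each), a log2 fold change of 0.37 (SE 0.13, edgeR adjusted p = 0.735). Both knockout values of Idi1 lay above both control values, but the nearest values of the groups differed by less than the knockouts did from each other. Mvd, the decarboxylase that makes isopentenyl diphosphate, was at 43.3 and 44.4 CPM in the Smad4 Knockout libraries, against 38.3 and 32.2 CPM in the Control libraries (log2 fold change 0.31, SE 0.13, edgeR adjusted p = 0.785). Mvk, mevalonate kinase, was at 43.7 and 53.05 CPM in the Smad4 Knockout libraries, against 41.6 and 36.4 CPM in the Control libraries (log2 fold change 0.31, SE 0.14). The groups did not overlap in Mvd and Mvk either, but in both genes the nearest values of the 2 groups differed by less than the controls did from each other.

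In the other mevalonate genes the groups overlapped. Hmgcs1, the HMG-CoA synthase, was at 439 and 481 CPM in the Smad4 Knockout libraries, against 441 and 387 CPM in the Control libraries (log2 fold change 0.15, SE 0.11). Fdps was at 325 and 353 CPM in the Smad4 Knockout libraries, against 355 and 298 CPM in the Control libraries (log2 fold change 0.06, SE 0.12). The thiolase gene Acat2 and the kinase gene Pmvk had log2 fold changes of 0.10 (SE 0.13) and 0.25 (SE 0.16), and that of Pmvk ranged between 0.0445 (Smad4 Knockout 2 left out) and 0.44 (Smad4 Knockout 1 left out). In all 7 genes Control 2 was the lowest library, and in 6 of them Smad4 Knockout 2 was the highest. Of all 18115 genes tested, Control 2 was the lowest in 5106 and Smad4 Knockout 2 the highest in 5268.

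Among the 11 genes from squalene synthesis to cholesterol, 10 had log2 fold changes above 0, with a median of 0.11. Dhcr7, the reductase of the last step to cholesterol, stood out (gene ID 13360, chromosome 7, 143823167 to 143848410 on GRCm38). It was at 30.2 and 30.7 CPM in the Smad4 Knockout libraries, against 19.7 and 20.6 CPM in the Control libraries. The difference between the groups was larger than that within either group, with means of 30.5 ± 0.297 CPM and 20.2 ± 0.58 CPM (SD, n = 2 each). Its log2 fold change was 0.60 (SE 0.12), which is 1.51-fold, and its edgeR adjusted p was 0.677, while DESeq2 gave an adjusted p of 0.0302. By unadjusted p it ranked 46 among the 18115 genes. Leaving out any 1 library gave log2 fold changes between 0.57 and 0.62.

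The genes of the earlier steps differed less. Fdft1, squalene synthase, was at 143 and 167 CPM in the Smad4 Knockout libraries, against 136 and 129.6 CPM in the Control libraries (log2 fold change 0.22, SE 0.12, edgeR adjusted p = 0.838). Exons of Fdft1 overlap those of Ctsb on the other strand over 18.3% of their length, so its count is uncertain where the counting did not use strand. The same holds for Hmgcs1, with 12.1% shared with Gm48342, while Tm7sf2 shares 12.1% with Vps51 on its own strand. Sqle, squalene epoxidase, was at 218 and 226 CPM in the Smad4 Knockout libraries, against 195 and 197 CPM in the Control libraries (log2 fold change 0.18, SE 0.09, edgeR adjusted p = 0.837). Msmo1, a sterol methyl oxidase, was at 283 and 295 CPM in the Smad4 Knockout libraries, against 271 and 229 CPM in the Control libraries (log2 fold change 0.21, SE 0.12, edgeR adjusted p = 0.849). In these 3 genes both knockout values lay above both control values, as they did in Cyp51 (log2 fold change 0.11), the lanosterol demethylase, and Hsd17b7 (0.16), which works with Msmo1. The nearest values of the groups differed by less than the controls did from each other in Msmo1 and Cyp51. In Fdft1 they differed by less than the knockouts did. The groups overlapped in Lss, the lanosterol synthase (0.02), Nsdhl (0.07), Ebp (0.06), Sc5d (0.03) and Tm7sf2 (-0.03), which act on intermediates between squalene and cholesterol.

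**Figure D2:**
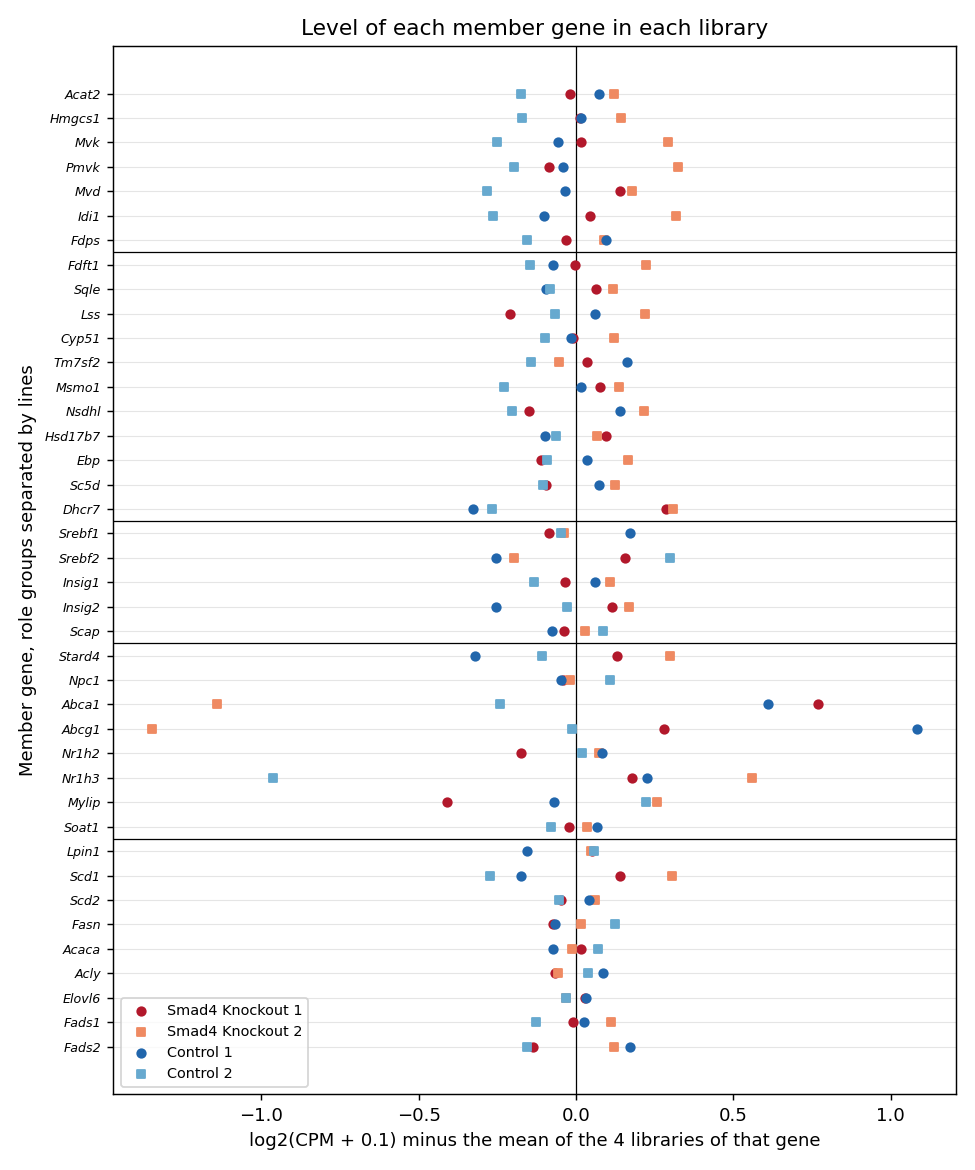
Level of each member in each of the 4 libraries, as log2(CPM + 0.1) minus the gene's own mean, with Smad4 Knockout libraries in red tones and Control libraries in blue tones. For most sterol synthesis enzymes Smad4 Knockout 2 lies furthest right and Control 2 furthest left, while in Dhcr7 both knockouts lie together on the right.

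Over the 18 sterol synthesis enzymes together, the libraries did not split by genotype alone. In 9 of the 18, both Smad4 Knockout libraries were above both Control libraries, a share of 50% against 18.2% of all genes and 17.4% of the genes averaging 5 CPM or more. In 0 of the 18 were both below both, against 19.8% of those genes, and 17 of the 18 had a log2 fold change above 0, against 48.5%. The genes were chosen with earlier results of these data known, so these shares describe the list and cannot test it. Smad4 Knockout 2 was the highest library in 15 of the 18 and Control 2 the lowest in 13. Among the 10804 genes averaging 5 CPM or more, these numbers were 3187 and 3467. Smad4 Knockout 2 exceeded Control 2 in all 18 genes (50.5% of all genes tested), with a median log2 difference of 0.30. Smad4 Knockout 1 exceeded Control 1 in 9 of the 18 (48.2% of all genes tested), with a median log2 difference of 0.000369. Within a genotype, Control 2 was below Control 1 in 15 genes (median log2 difference -0.17) and Smad4 Knockout 2 was above Smad4 Knockout 1 in 16 (median 0.13). The difference between libraries of the same genotype was thus about as large as the median log2 fold change between genotypes, 0.16. That median was 0.0798 without Smad4 Knockout 2, 0.0799 without Control 2 and 0.24 without Control 1. The fold change exceeded both the difference between the knockouts and that between the controls in 6 of the 18 genes, Dhcr7 among them. The share of all genes that do so was not counted.

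**Figure D3:**
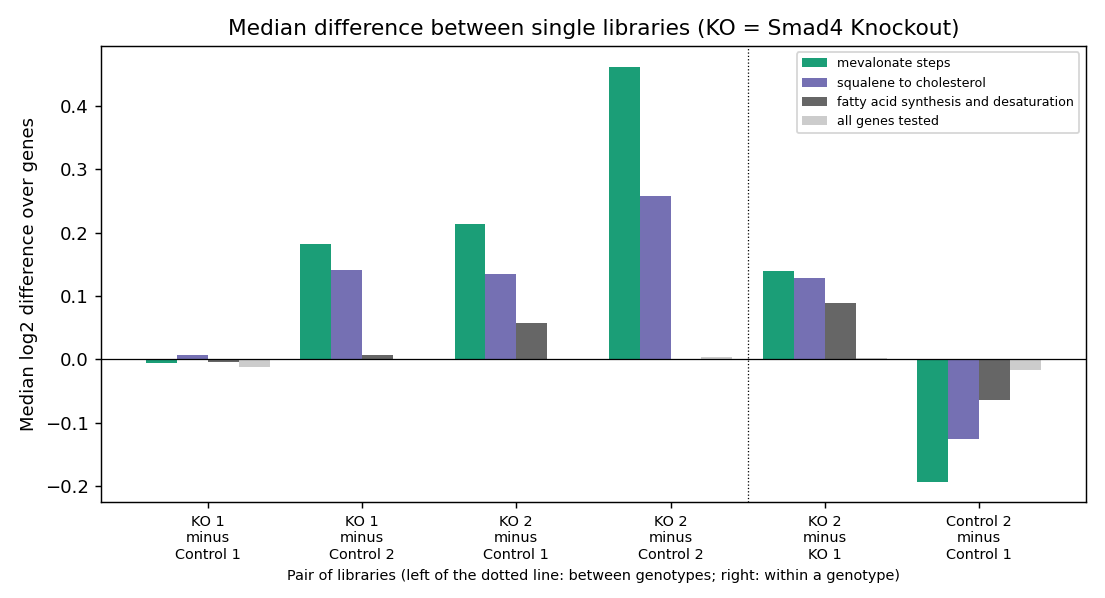
Median log2 difference between single libraries over the genes of 3 role groups and over all genes tested. The mevalonate genes differ by 0.46 between Smad4 Knockout 2 and Control 2 and by -0.01 between Smad4 Knockout 1 and Control 1. They differ by 0.21 between Smad4 Knockout 2 and Control 1 and by 0.18 between Smad4 Knockout 1 and Control 2. They also differ within each genotype.

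Other measures of the libraries moved in part with this order. The summed level of the 7 gastric surface and neck mucous markers was 92.3 and 167 CPM in the Smad4 Knockout libraries, against 69.3 and 44.6 CPM in the Control libraries, none of its members being at 0 in all libraries. In 3 of the 7, Gkn1, Tff1 and Tff2, both knockouts lay above both controls, against 18.2% of all genes. For these 3 the DESeq2 adjusted p was 0.00169, 0.0225 and 0.036, and the edgeR adjusted p was 0.677 for each. Gkn1 was at 5.87 and 19.98 CPM in the Smad4 Knockout libraries, against 2.95 and 2.54 CPM in the Control libraries. Muc6 went the other way, at 0 CPM in both Smad4 Knockout libraries, against 0.163 and 0.129 CPM in the Control libraries. The groups overlapped in Muc5ac, Gkn2 and Gkn3, and Gkn3 was at 15.6 and 59.2 CPM in the Smad4 Knockout libraries, against 21.9 and 11.8 CPM in the Control libraries. The share of mitochondrial counts was 0.954% and 1.48% in the Smad4 Knockout libraries, against 0.941% and 1.18% in the Control libraries, and the share of ribosomal RNA was 0.243% and 0.562%, against 0.242% and 0.389%. The part of these in the sterol gene levels was not tested.

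The regulators of the pathway showed no shared direction. Srebf1 was at 188 and 194 CPM in the Smad4 Knockout libraries, against 225 and 193 CPM in the Control libraries (log2 fold change -0.13, SE 0.11, edgeR adjusted p = 0.939). The gene count does not separate the isoforms that start at different promoters. Srebf2 was at 151 and 118 CPM in the Smad4 Knockout libraries, against 114 and 167 CPM in the Control libraries (log2 fold change -0.06, SE 0.21, edgeR adjusted p = 0.995). Srebf2 thus varied more within each genotype than between them, and it was lowest in Control 1 and highest in Control 2, the library in which the sterol enzymes were lowest. Scap, the escort of SREBP, was at 65.5 and 68.5 CPM in the Smad4 Knockout libraries, against 63.7 and 71.4 CPM in the Control libraries (log2 fold change -0.01, SE 0.11). Exons of Scap overlap another gene on the other strand over 13.2% of their length.

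Of the INSIG genes, which retain SCAP, Insig1 is itself a well known SREBP target. Insig1 was at 186 and 205 CPM in the Smad4 Knockout libraries, against 198 and 174 CPM in the Control libraries (log2 fold change 0.07, SE 0.12, edgeR adjusted p = 0.984). Insig2 was at 23.95 and 24.9 CPM in the Smad4 Knockout libraries, against 18.5 and 21.7 CPM in the Control libraries (log2 fold change 0.28, SE 0.14, edgeR adjusted p = 0.832). The groups overlapped in Insig1 and did not in Insig2, where their nearest values differed by less than the controls did from each other.

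Sterol transport, storage and LXR genes had a median log2 fold change of -0.08, with 3 of 8 above 0, and the median was above 0 without Smad4 Knockout 1 (0.0316) or without Control 1 (0.0139). Stard4, which carries sterols between membranes, was at 80.3 and 90.3 CPM in the Smad4 Knockout libraries, against 58.7 and 68.2 CPM in the Control libraries. Both knockout values lay above both control values, with means of 85.3 ± 7.06 CPM and 63.5 ± 6.66 CPM (SD, n = 2 each). The log2 fold change of Stard4 was 0.43 (SE 0.13, 95% interval 0.12 to 0.73, edgeR adjusted p = 0.677). Soat1, which esterifies cholesterol for storage, was at 99.7 and 104 CPM in the Smad4 Knockout libraries, against 106 and 95.9 CPM in the Control libraries (log2 fold change 0.01, SE 0.11). Npc1, which moves cholesterol out of lysosomes, had a log2 fold change of -0.06 (SE 0.12).

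The cholesterol exporters were the most variable members. Abcg1 was at 7.66 and 2.41 CPM in the Smad4 Knockout libraries, against 13.5 and 6.24 CPM in the Control libraries. The groups overlapped, since Smad4 Knockout 1 lay above Control 2. The log2 fold change was -0.97 (SE 0.59, 95% interval -2.43 to 0.49, edgeR adjusted p = 0.868), and it ranged from -2.03 without Smad4 Knockout 1 to -0.31 without Control 1. Abca1, with counts of 131 and 32 in the Smad4 Knockout libraries and of 132 and 65 in the Control libraries, was at most at 1.52 CPM in any library (log2 fold change -0.15, SE 0.76). For the LXR genes Nr1h2 and Nr1h3 and the LXR target Mylip, a ubiquitin ligase for lipoprotein receptors, the log2 fold changes were -0.10 (SE 0.14), 0.68 (SE 0.52) and -0.12 (SE 0.32). Nr1h3 was at 1.26 and 1.67 CPM in the Smad4 Knockout libraries, against 1.31 and 0.518 CPM in the Control libraries, so its groups overlapped at a low level. Its log2 fold change was 0.17 without Control 2 and 1.501 without Control 1.

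**Figure D4:**
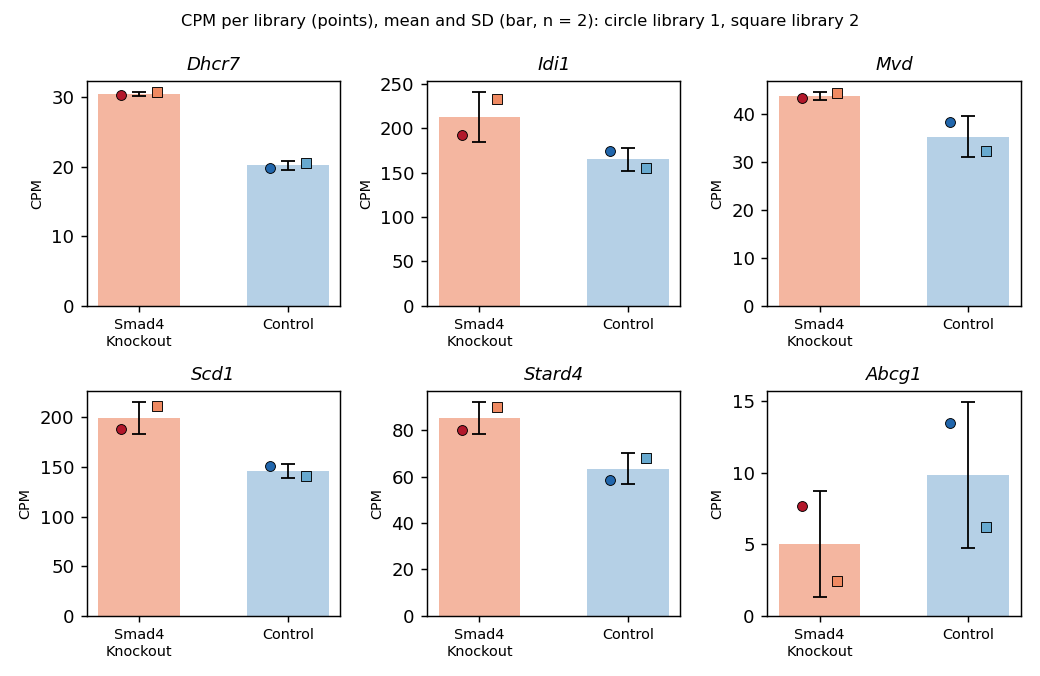
CPM of 6 members in each library (points), with the mean (bar) and SD (line, n = 2) of the Smad4 Knockout libraries on the left and the Control libraries on the right. The groups do not overlap in Dhcr7, Idi1, Mvd, Scd1 and Stard4, and they overlap in Abcg1.

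Fatty acid synthesis genes were close to equal between the genotypes, with a median log2 fold change of 0.000813 and 5 of 9 above 0. Scd1, a stearoyl-CoA desaturase that makes oleate, differed most. It was at 188 and 211 CPM in the Smad4 Knockout libraries, against 151 and 141 CPM in the Control libraries, so the groups did not overlap (log2 fold change 0.45, SE 0.11, 95% interval 0.18 to 0.71). Its edgeR adjusted p was 0.677 and its DESeq2 adjusted p was 0.0526. Its paralogue Scd2 was far more abundant, at 1213 and 1306 CPM in the Smad4 Knockout libraries, against 1290 and 1208 CPM in the Control libraries (log2 fold change 0.01, SE 0.10, 95% interval -0.23 to 0.25). Scd1 and Scd2 are related in sequence, which leaves both counts uncertain if reads fit either gene, and the difference between their fold changes was not tested.

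The enzymes that make the fatty acid chain showed no such difference. Fasn was at 883 and 939 CPM in the Smad4 Knockout libraries, against 885 and 1011 CPM in the Control libraries (log2 fold change -0.06, SE 0.11, 95% interval -0.32 to 0.21). Acaca, the acetyl-CoA carboxylase, was at 199 and 195 CPM in the Smad4 Knockout libraries, against 187 and 206 CPM in the Control libraries (log2 fold change 0.000813, SE 0.10). Acly was at 516 and 519.6 CPM in the Smad4 Knockout libraries, against 573 and 554 CPM in the Control libraries (log2 fold change -0.12, SE 0.09, edgeR adjusted p = 0.902). Acly was thus lower in both knockouts by a margin that did not pass the test. The elongase gene Elovl6 (-0.00166), the desaturase genes Fads1 (0.10) and Fads2 (-0.02) and the phosphatidate phosphatase gene Lpin1 (0.10) had overlapping groups.

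**Figure D5:**
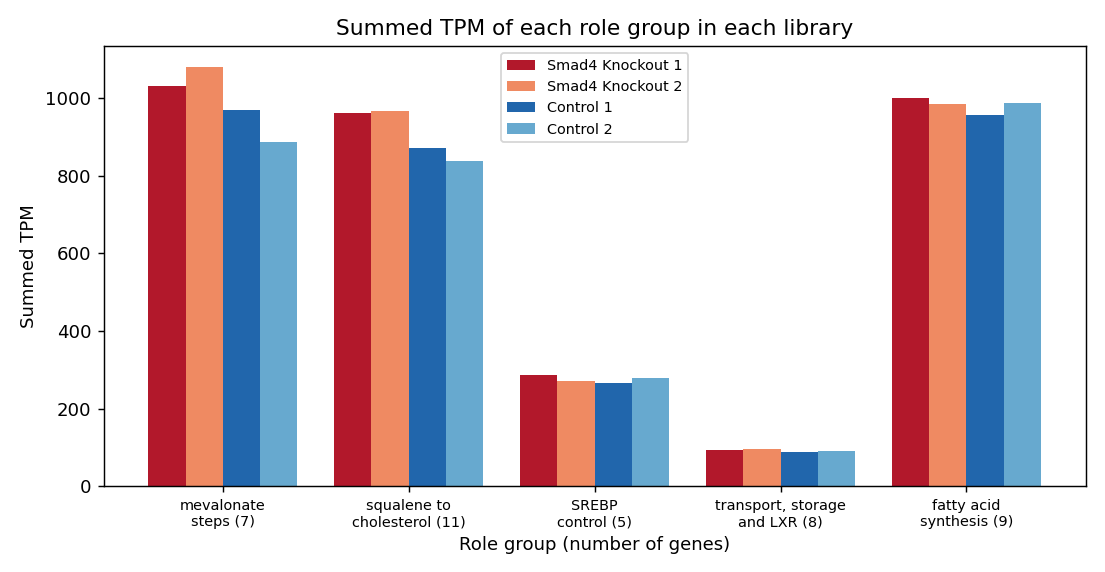
Summed TPM of each role group in each library, Smad4 Knockout libraries first. The 7 mevalonate genes sum to 1030 and 1080 TPM in the Smad4 Knockout libraries, against 969 and 886 TPM in the Control libraries, and the 9 fatty acid genes to 999 and 986 TPM, against 955 and 986 TPM. On CPM, Smad4 Knockout 1 exceeds Control 1 in 3 of the 7 mevalonate genes and Control 2 in 7. Smad4 Knockout 2 exceeds Control 1 in 6 and Control 2 in 7.

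Summed TPM is dominated by the most abundant genes of a group. The 18 sterol synthesis enzymes summed to 1992 and 2046 TPM in the Smad4 Knockout libraries, against 1840.0 and 1724 TPM in the Control libraries. The means were 2019 ± 38.4 TPM and 1782 ± 82.2 TPM (SD, n = 2 each), a ratio of 1.13. This separation of the genotypes holds for TPM. On CPM, Smad4 Knockout 1 exceeded Control 1 in 9 of these 18 genes and Control 2 in 16. Smad4 Knockout 2 exceeded Control 1 in 16 and Control 2 in 18. The scale also matters over all genes tested. On TPM, 23.2% lay higher and 14.1% lower without overlap, against 18.2% and 18.6% on CPM. No p is given, since with 2 libraries per genotype the smallest two-sided p of an exact permutation test is 0.333. The 5 SREBP control genes had a ratio of 1.02 and the 9 fatty acid genes one of 1.02, and on summed CPM the log2 ratio of both was below 0 (-0.0234 and -0.00599).

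Related genes outside the 40 were then counted, from lists of 73 genes of sterol and isoprenoid metabolism, SREBP processing, LXR signalling and fatty acid and glycerolipid synthesis. Of these, 68 were tested, and 34 had a log2 fold change above 0 and 34 below, against 49.5% of all genes above 0. At an adjusted p of 0.05 edgeR called 0. At an unadjusted p under 0.05 it listed 5 as higher and 3 as lower, against 3.33% and 3.04% of all genes. DESeq2 called 1 as higher, against 0.513% of all genes called higher and 0.173% called lower. In 13 of the 68 both knockouts lay above both controls and in 12 below, shares of 19.1% and 17.6% that are near those of all genes. Smpdl3a, an LXR target in human cells, was the DESeq2 call, at 9.09 and 13.3 CPM in the Smad4 Knockout libraries, against 6.01 and 4.67 CPM in the Control libraries (log2 fold change 1.06, SE 0.25, edgeR adjusted p = 0.677, DESeq2 adjusted p = 0.0461). Rxrb, a partner of LXR, had a log2 fold change of -0.11 (SE 0.13).

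Among genes of sterol handling and SREBP processing, Lbr, which also reduces sterols, was at 283 and 334 CPM in the Smad4 Knockout libraries, against 281 and 235 CPM in the Control libraries (log2 fold change 0.26, SE 0.14). Nceh1, a cholesteryl ester hydrolase, had a log2 fold change of 0.26 (SE 0.13). Mbtps2, a protease that releases SREBP, was at 28.2 and 24.99 CPM in the Smad4 Knockout libraries, against 19.6 and 22.3 CPM in the Control libraries (log2 fold change 0.34, SE 0.14, edgeR adjusted p = 0.785), and Erlin1 had one of 0.21 (SE 0.14). In Mbtps2 the groups did not overlap. Acss2, which makes acetyl-CoA from acetate, was at 10.7 and 14.7 CPM in the Smad4 Knockout libraries, against 8.29 and 8.28 CPM in the Control libraries (log2 fold change 0.62, SE 0.20, edgeR adjusted p = 0.696). Fads3, a relative of the desaturase genes, was at 142 and 117 CPM in the Smad4 Knockout libraries, against 167 and 168 CPM in the Control libraries (log2 fold change -0.37, SE 0.12, edgeR adjusted p = 0.697).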

How the data were processed

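Total RNA of 4 mouse gastric organoid libraries, 2 per genotype by the genotype label, was sequenced. The labels' protocols name the Illumina kit TruSeq Stranded Total RNA Gold. The submitters' processing notes list HISAT2 2.1.0 and StringTie 2.1.3b, besides bcl2fastq 2.20.0 and Trimmomatic, with mm10 (GRCm38) as the build. The sources used here do not state how reads were counted or which strand setting was used. Each gene has a read count and a TPM value, per the file headers. Although whole, the deposited values were handled as estimated counts. The columns of Control 2 carry its title with an added 2. A total of 1 column of another sample was not used.

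Counts were tested with edgeR 4.0.16 in R 4.3.3 (quasi-likelihood, TMM, filterByExpr with a minimum count of 10, no covariate), with p-values adjusted by Benjamini-Hochberg over 18115 genes. Intervals are at 95% from the same fit. Alternatives were RLE or no scaling, no filter, DESeq2 1.42.0, limma 3.58.1 on log2(TPM + 1) or log2(TPM + 0.1) with a TPM of at least 1 in 2 libraries, leaving out mitochondrial and ribosomal genes, and leaving out each library. Counts of members without overlap on other scales were added after seeing the data.

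Members and lists were chosen with earlier results of these data known. Values of every library are given for the 10 members with the smallest p, the highest TPM per role group, the most extreme changes and the 5 regulators. Hmgcs1, Fasn, Acaca, Acly, Abca1, Nr1h3, and the markers Tff1, Muc6 and Gkn3 were added after their values were seen. Other lists give the 2 members with the smallest p, and marker lists with low sums give the sum. Of 171 listed genes, 169 matched the files. Gene coordinates and overlaps come from RefSeq and GENCODE on GRCm38.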

Additional observations from a re-analysis of the deposited data

How the results depend on the processing

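No alternative called a member except DESeq2, which called Dhcr7. Over all genes, DESeq2 called 98 genes higher and 33 lower, and leaving out 1 library gave 0 to 48 higher and 0 to 44 lower in edgeR, the largest numbers without Smad4 Knockout 1. Of 438 log2 fold changes of single members under the alternatives, 384 kept their direction and 54, in 21 members, did not. The cause was not tested. With limma on log2(TPM + 1) and log2(TPM + 0.1) the reversed values were 0.01479 and 0.01564 for Tm7sf2, -0.01717 and -0.01736 for Sc5d, 0.03037 and 0.0316 for Scap, -0.01097 and -0.01134 for Acaca, 0.03258 and 0.03304 for Elovl6, and 0.01989 and 0.02018 for Fads2. Without scaling they were 0.008444 for Scap, 0.02016 for Elovl6 and 0.005013 for Fads2. Elovl6 was also at 0.001606 with RLE, 0.009974 without the filter, 0.002229 in DESeq2 and 0.009491 without mitochondrial and ribosomal genes. Leaving out 1 library gave ranges that cross 0 in Abca1 (-1.63 to 0.58), Acaca (-0.066 to 0.072), Acat2 (-0.0234 to 0.23), Ebp (-0.0701 to 0.19), Elovl6 (-0.0349 to 0.0421), Fads2 (-0.17 to 0.16), Fasn (-0.15 to 0.0403), Fdps (-0.0663 to 0.19), Insig1 (-0.0224 to 0.17), Lpin1 (-0.00563 to 0.21), Lss (-0.20 to 0.22), Mylip (-0.50 to 0.18), Npc1 (-0.14 to 0.0148), Nr1h2 (-0.21 to 0.0237), Nsdhl (-0.11 to 0.25), Sc5d (-0.0678 to 0.14), Scap (-0.0895 to 0.0709), Scd2 (-0.0351 to 0.0642), Soat1 (-0.0619 to 0.0884), Srebf2 (-0.31 to 0.24) and Tm7sf2 (-0.17 to 0.14). Ranges that stay on one side of 0 but move by over 1.5 times were found in Pmvk (0.0445 to 0.44), Nr1h3 (0.17 to 1.501), Hmgcs1 (0.0597 to 0.25), Mvk (0.18 to 0.44), Mvd (0.19 to 0.45), Idi1 (0.24 to 0.50), Fdft1 (0.12 to 0.33), Cyp51 (0.0607 to 0.17), Msmo1 (0.0891 to 0.34), Srebf1 (-0.23 to -0.0122), Insig2 (0.17 to 0.40), Abcg1 (-2.03 to -0.31), Fads1 (0.0249 to 0.18), Stard4 (0.326 to 0.537) and Acly (-0.147 to -0.096). The same step gave median log2 fold changes of 0.0361 to 0.16 over all members, 0.0798 to 0.24 over the sterol synthesis enzymes, 0.099 to 0.33 in the mevalonate genes (lowest without Smad4 Knockout 2), 0.0607 to 0.21 between squalene and cholesterol, -0.0122 to 0.0709 in the SREBP control genes, -0.034 to 0.0316 in the transport genes and 0.0249 to 0.0642 in the fatty acid genes. The SREBP control median was 0.03037 and 0.0316 in the limma fits. The log2 ratio of summed TPM of the genes between squalene and cholesterol was 0.15 to 0.20. On summed CPM in place of TPM the log2 ratio was 0.05779 for all members against 0.12, 0.1374 against 0.18 between squalene and cholesterol, -0.02344 against 0.03 for SREBP control and -0.005988 against 0.03 for fatty acid genes. On TPM, 21 members lay higher and 2 lower without overlap. No paired analysis was possible because the labels give the libraries no shared numbers. With 2 libraries per genotype, the 95% interval lay above 0 in 4 of the 40 members and below 0 in 0. In the other members it included 0. The share of all genes with an interval that leaves out 0 was not counted.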

Other observations

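Outside the 40 genes, the related genes that edgeR listed at an unadjusted p under 0.05 and that are not described above were named after their values were seen, and none passed over all genes. Elovl4, an elongase of very long fatty acids, was at 1.99 and 2.22 CPM in the Smad4 Knockout libraries, against 0.796 and 1.23 CPM in the Control libraries (log2 fold change 1.05, SE 0.35). Acsl1, which activates fatty acids, was at 15.7 and 21.2 CPM in the Smad4 Knockout libraries, against 13.3 and 12.9 CPM in the Control libraries (log2 fold change 0.50, SE 0.18). Dgat1, an enzyme of triglyceride synthesis, was at 20.5 and 23.05 CPM in the Smad4 Knockout libraries, against 27.05 and 27.3 CPM in the Control libraries (log2 fold change -0.32, SE 0.13). Fabp5, a fatty acid binding protein, was at 99.1 and 91.8 CPM in the Smad4 Knockout libraries, against 135.5 and 108 CPM in the Control libraries (log2 fold change -0.35, SE 0.14). In each of these 4 genes the values of the genotypes did not overlap, against 18.2% of all genes higher and 18.6% lower. Since the genes were picked by p in these same libraries, this adds nothing to the p.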
